A study of Mus musculus with 7 samples.

Results

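The genes described here mark pericytes and vascular smooth muscle cells, the mural cells that wrap capillaries, arterioles and venules, and they were read in the soleus, a postural muscle of the mouse hindlimb. The set held 10 genes, Kcnj8, Abcc9, Rgs5, Cspg4, Pdgfrb, Notch3, Acta2, Myh11, Tagln and Des, and all probe sets annotated to exactly 1 of these symbols were taken. These were 19 of the 22690 probe sets of the array, and all 10 genes had at least 1. Wild type soleus was measured on 3 one-colour Affymetrix arrays and soleus of mice labelled as Yin Yang 1 (YY1) knockout on 4. Mice of both groups were 6 months old and of mixed C57Bl/6 and 129 background. YY1 is a zinc finger transcription factor that can activate or repress its targets. The labels do not say which cells lost the gene, how it was removed and whether each array came from its own animal, and the p-values therefore measure only the spread among the 7 arrays, which may be technical.

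Pericytes sit within the basement membrane of capillaries, support the endothelium and can tune capillary flow, whereas smooth muscle cells ring larger vessels and contract through actin, smooth muscle myosin and their regulators. Both depend on platelet-derived growth factor and Notch signals from the endothelium. Mural cells also carry an ATP-sensitive potassium (KATP) channel built of the pore Kir6.1 (Kcnj8) and the sulphonylurea receptor SUR2 (Abcc9), whose opening relaxes the cell. Not every gene of the set is private to mural cells in muscle: Abcc9 also serves the KATP channel of muscle fibres, and Des encodes desmin, the intermediate filament of every fibre. In RNA from whole muscle, fewer cells of a type and less RNA per cell cannot be told apart.

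Array medians lay between 139.1 and 143.2 intensity units, and the log2 values of arrays of the same genotype correlated more closely (at least 0.9955) than those of different genotypes (0.98 to 0.9889). Of the 4 Yy1 probe sets, 3 fell in knockout, by 0.77 to 1.70 log2 units, and the dimmest differed by -0.060 (adjusted p = 0.712).

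In the knockout soleus the KATP channel genes Kcnj8 and Abcc9, the capillary pericyte gene Rgs5 and the receptor gene Notch3 fell. Pdgfrb did not pass the test, and Cspg4 rose. The contractile genes split: Myh11 and Tagln fell, Acta2 did not pass, and Des rose. Each gene was read from its brightest probe set (highest 7-array mean), and 8 of the 10 genes passed the test (limma, adjusted p below 0.05), 6 lower and 2 higher. Over all 12393 genes the test called 31.8%, 15.5% lower and 16.3% higher. Over the 19 probe sets, 12 passed, 9 lower and 3 higher, against 28.6% of all 22626 probe sets tested, 14.3% in each direction. The groups did not overlap for 8 of the 10 genes and 13 of the 19 probe sets, against 39.5% of all genes and 36.4% of all probe sets. The median log2 fold change was -0.51 over the 10 genes and 0.01 over all genes.

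**Figure D1:**
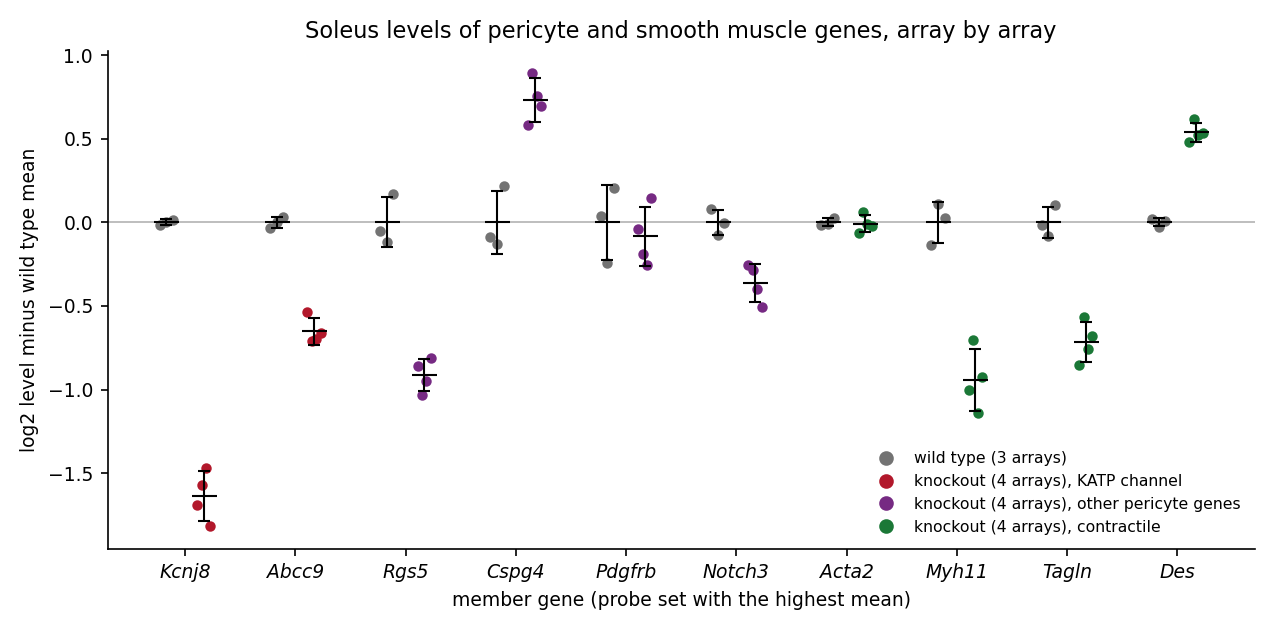
Log2 level of each of the 10 genes on each array, less the gene's wild type mean (y axis, log2 units), by gene (x axis); grey points are the 3 wild type arrays, coloured points the 4 knockout arrays, and bars the mean ± SD. All knockout points of Kcnj8, Abcc9, Rgs5, Notch3, Myh11 and Tagln lie below the wild type points, those of Cspg4 and Des lie above, and the groups overlap for Pdgfrb and Acta2.

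Kcnj8, the pore of the vascular KATP channel, fell more than any other of the 10 genes by this reading. It measured 9.54, 9.56 and 9.57 log2 units on the 3 wild type arrays and 7.87, 7.98, 8.09 and 7.74 on the 4 knockout arrays. Every knockout array was more than 1 log2 unit below every wild type array. The log2 fold change was -1.64 (SE 0.08, adjusted p = 4.01e-05), which left 32.2% of the wild type level, and Kcnj8 had a single probe set (1418142_at).

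Abcc9, the regulatory subunit of the same channel, measured 9.15, 9.19 and 9.22 in wild type and 8.65, 8.48, 8.49 and 8.52 in knockout. The groups did not overlap, and the fall was smaller, at -0.65 (SE 0.06, adjusted p = 0.000189), leaving 63.7%. Its single probe set (1420408_a_at) carries the suffix used for sets that match several transcripts of 1 gene, so the fibre and vascular forms of SUR2 were not separated. Kcnj8 and Abcc9 are neighbours on chromosome 6 in the RefSeq gene table, on the same strand.

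The 250 bases before a listed start site of each of these 2 genes are shown beside those of Acta2. Acta2 is the contractile gene whose level did not pass the test. The 3 sequences are those of both channel genes and of Acta2 alone among the contractile genes. They are RefSeq sequences of build GRCm38.p6, all on the minus strand and printed 5′ to 3′ in the direction of transcription. The windows are chr6:142571615-142571864 for Kcnj8, chr6:142702275-142702524 for Abcc9 and chr19:34255374-34255623 for Acta2. The annotated Abcc9 gene reaches to position 142702766, past its whole window, and the Acta2 gene to 34255585, within its window. These 2 windows therefore lie wholly or partly inside the gene, before a start site that is not its outermost. Capitals mark matches to a motif.
Kcnj8: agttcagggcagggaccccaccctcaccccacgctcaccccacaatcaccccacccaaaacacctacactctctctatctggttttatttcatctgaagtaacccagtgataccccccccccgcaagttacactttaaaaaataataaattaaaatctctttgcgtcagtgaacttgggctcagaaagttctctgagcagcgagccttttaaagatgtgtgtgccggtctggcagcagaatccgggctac
Abcc9: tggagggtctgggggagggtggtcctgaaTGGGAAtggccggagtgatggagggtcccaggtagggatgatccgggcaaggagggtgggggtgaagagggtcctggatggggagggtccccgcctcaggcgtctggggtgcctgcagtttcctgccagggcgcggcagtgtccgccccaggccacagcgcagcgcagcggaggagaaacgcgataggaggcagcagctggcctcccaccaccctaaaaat
Acta2: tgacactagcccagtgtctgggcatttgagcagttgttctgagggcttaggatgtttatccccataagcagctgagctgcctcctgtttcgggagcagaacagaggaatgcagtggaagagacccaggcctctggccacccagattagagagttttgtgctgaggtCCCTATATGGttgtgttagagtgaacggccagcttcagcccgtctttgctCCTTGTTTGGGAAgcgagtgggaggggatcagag

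Promoters were found for 7 of the 10 genes, and 3 motifs were searched on both strands. The CArG box, the site of serum response factor (SRF) that many contractile genes carry, was matched in none of the 7 and in 1.47% of all 32851 windows of that length. With 1 of its 6 middle letters allowed to be G or C, a form added after the sequences were seen, it matched Acta2 at 2 places, CCCTATATGG and CCTTGTTTGG, and 7.24% of all windows. The TGGGAA core of the Notch partner RBPJ was found in Abcc9 and Acta2 and in 21.6% of all windows, and in Acta2 it overlaps the second CArG-like run. The YY1 core CCATNTT was found in Cspg4 alone among the 7 and in 12.4% of all windows. These matches describe letters in a window and show no binding.

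Rgs5, a GTPase-activating protein that dampens signals of G protein-coupled receptors and a widely used pericyte marker, was lower in all 4 of its probe sets. The brightest (1417466_at) measured 13.15, 13.08 and 13.37 in wild type and 12.34, 12.17, 12.25 and 12.39 in knockout, with no overlap. Its log2 fold change was -0.91 (SE 0.09, adjusted p = 0.000189), leaving 53.1%. The changes of the other 3 sets were larger, -1.29 (SE 0.21) for 1420941_at, -1.81 (SE 0.09) for 1420942_s_at and -1.75 (SE 0.12) for 1420940_x_at, and with the 4 sets averaged the change was -1.44. The suffixes _s_at and _x_at mark sets whose probes can also match transcripts of other genes.

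Cspg4, the NG2 proteoglycan of pericytes and of other stromal and glial precursor cells, went the other way in both of its probe sets. The brighter (1450944_at) measured 7.75, 7.71 and 8.06 in wild type and 8.42, 8.73, 8.60 and 8.54 in knockout. The lowest knockout array was above the highest wild type array. It rose by 0.73 (SE 0.10, adjusted p = 0.0012), or 1.66-fold, and the second (1423341_at) by 0.88 (SE 0.08, adjusted p = 0.000193), or 1.83-fold.

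Pdgfrb, the receptor through which endothelial PDGF-B recruits mural cells and which fibroblasts carry as well, measured 10.26, 9.98 and 10.43 in wild type and 10.19, 10.03, 9.97 and 10.37 in knockout. The groups overlapped, with a log2 fold change of -0.08 (95% confidence interval -0.37 to 0.20, adjusted p = 0.662). The dimmer set (1417148_at) measured 7.72 to 7.97 in wild type and 7.51 to 7.67 in knockout, a difference of -0.21 (SE 0.08) that did not pass (adjusted p = 0.0691), although the groups did not overlap.

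Notch3, the Notch receptor of arterial smooth muscle and pericytes, fell by a smaller amount. Its brighter probe set (1421965_s_at) measured 8.54, 8.38 and 8.45 in wild type and 8.20, 8.17, 8.06 and 7.95 in knockout, without overlap. The log2 fold change was -0.36 (SE 0.08, adjusted p = 0.00778), leaving 77.9%. The dimmer set (1421964_at), below the array medians, gave -0.16 (SE 0.09, adjusted p = 0.202).

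Acta2, the smooth muscle alpha-actin, measured 11.12, 11.12 and 11.16 in wild type and 11.07, 11.20, 11.12 and 11.11 in knockout. The 2 groups lay on top of each other. The log2 fold change was -0.01 (SE 0.05, adjusted p = 0.931), its 95% confidence interval ran from -0.13 to 0.11, and its sign turned with arrays centred on their median (0.00099) or quantile-normalized (0.03). This set (1416454_s_at) carries the suffix for probes that can match transcripts of several genes, and which transcripts it reads in muscle was not tested. The second Acta2 set (1456658_at) had 1 identical low value, 5.06 log2 units, on 5 of the 7 arrays, and gives no information on a change.

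Myh11, the smooth muscle myosin heavy chain and the most restricted marker of differentiated smooth muscle in the set, measured 7.69, 7.93 and 7.85 in wild type and 6.82, 7.12, 6.68 and 6.89 in knockout. All 4 knockout arrays were below all 3 wild type arrays. The change was -0.94 (SE 0.11, adjusted p = 0.000419), leaving 52.0%. The second set (1418122_at), dim at 5.30 in wild type, gave -0.22 (SE 0.11, adjusted p = 0.187), and the average of both gave -0.58.

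Tagln, whose product SM22 binds actin filaments in smooth muscle, measured 10.02, 9.96 and 10.14 in wild type and 9.19, 9.47, 9.28 and 9.36 in knockout. It fell without overlap by 0.72 log2 units (SE 0.08, adjusted p = 0.000406), leaving 60.9%. It had 1 probe set (1423505_at).

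Des measured 14.24, 14.20 and 14.23 in wild type and 14.70, 14.84, 14.74 and 14.75 in knockout. Every knockout array was higher, and the rise was 0.54 (SE 0.05, adjusted p = 0.000257), or 1.45-fold. The dim second set (1426732_at) gave 0.35 (SE 0.12, adjusted p = 0.068), with overlap. The share of the Des signal that comes from muscle fibres was not tested.

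**Figure D2:**
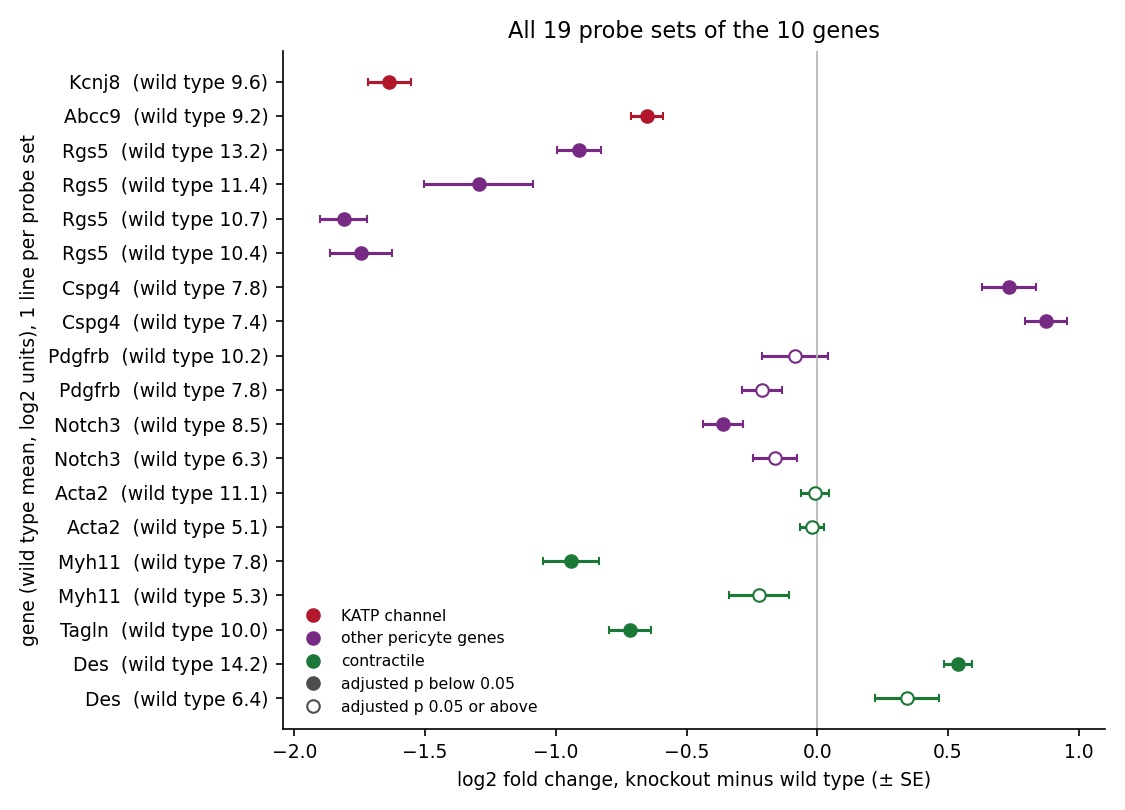
Log2 fold change of knockout against wild type (x axis) with its SE for each of the 19 probe sets, 1 line each, labelled with the gene and the wild type mean in log2 units; filled points passed the test. The 4 Rgs5 sets lie between -1.81 and -0.91, both Cspg4 sets are above 0, and 6 of the 7 open points are the dimmer set of their gene or belong to Acta2.

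The channel genes were then set against the contractile genes on the same arrays, in 8 pairs of 1 channel gene and 1 contractile gene. For each pair the difference of the 2 log2 levels was compared between genotypes by a two-sided exact permutation test over the 35 divisions of the arrays, whose smallest p is 0.0286. The change of Kcnj8 less that of Acta2 was -1.63 log2 units (SE 0.07), less that of Tagln -0.92 (SE 0.11) and less that of Des -2.17 (SE 0.08). The change of Abcc9 less that of Acta2 was -0.64 (SE 0.06) and less that of Des -1.19 (SE 0.07). These 5 pairs reached the smallest exact permutation p of 0.0286 (adjusted p = 0.0457 over the 8 pairs), with all 4 knockout arrays below all 3 wild type arrays.

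The remaining 3 pairs did not pass. Kcnj8 against Myh11 differed by -0.69 (SE 0.15, exact permutation p = 0.0571, adjusted p = 0.0762), also without overlap between the groups (-0.89 to -0.33 in knockout, -0.11 to 0.12 in wild type, less the wild type mean), and passed only with the probe sets of each gene averaged, at -1.05. Abcc9 against Myh11 differed by 0.29 (SE 0.12, exact permutation p = 0.143, adjusted p = 0.163), and the sign turned with probe sets averaged, at -0.07. Abcc9 against Tagln differed by 0.06 (SE 0.11, exact permutation p = 0.686). The channel genes differed from Acta2 and Des, while the difference from Myh11 passed for neither of them with the brightest sets. Among the pairs with Myh11 or Tagln, only Kcnj8 against Tagln passed. Des is also a fibre gene, and which transcripts the Acta2 set reads was not tested.

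**Figure D3:**
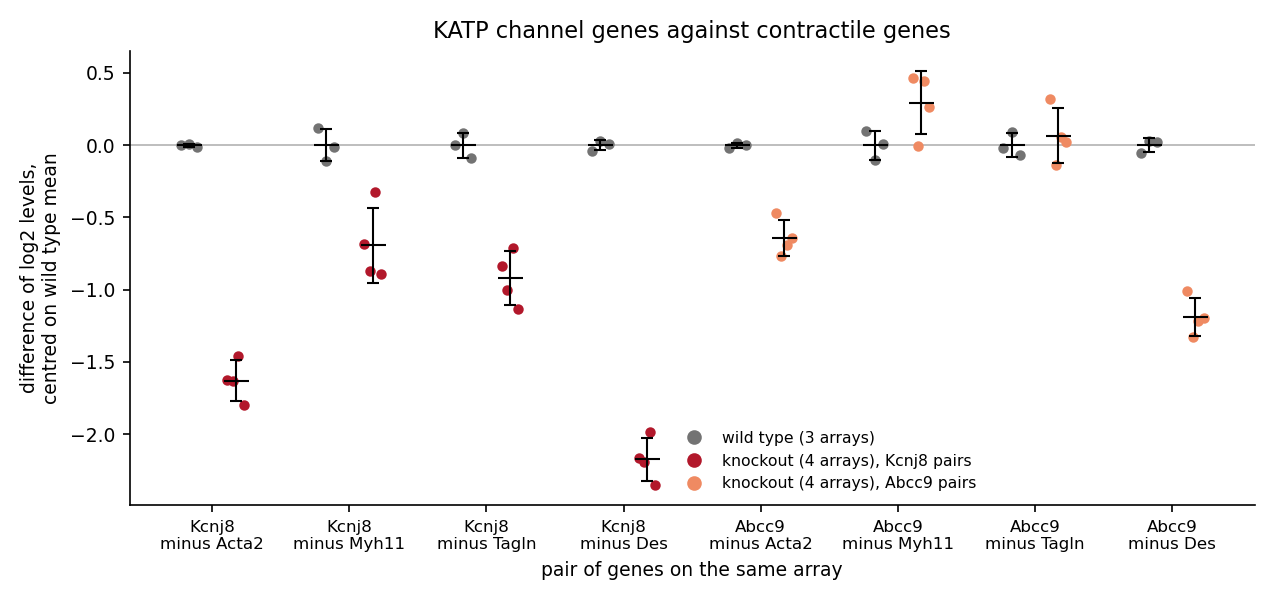
Difference of the log2 levels of 2 genes on the same array, less its wild type mean (y axis, log2 units), for the 8 pairs (x axis); grey points are wild type arrays, coloured points knockout arrays, and bars the mean ± SD. The pairs of Kcnj8 lie below 0 on all knockout arrays, lowest against Des at -2.17 on average, and Abcc9 against Tagln straddles 0.

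Other markers of mural cells, from a list that holds none of the 10 genes, were lower more often than higher. Of 12 measured, 7 fell, 2 rose and 3 did not pass (75% called, against 31.8% of all genes), with a median log2 fold change of -0.47. Higd1b, a hypoxia-inducible domain protein of capillary pericytes, measured 8.13, 8.22 and 8.26 in wild type and 6.61, 6.55, 6.77 and 6.35 in knockout, a fall of 1.63 (SE 0.09, adjusted p = 4.88e-05). Vtn, vitronectin, which pericytes secrete, fell by 1.89 (SE 0.08) and Steap4, a metalloreductase, by 1.04 (SE 0.11). Their second probe sets gave smaller changes, -0.87 for Vtn and -0.44 for Steap4. Anpep, an aminopeptidase shared with other stromal cells, rose by 0.48 (SE 0.08) and the mural and stromal transcription factor Tbx18 by 0.73 (SE 0.14). Both were read from sets below the array medians. So was Gja4, picked with its value in view, which fell by 0.65 (SE 0.16). Over probe sets above the median 6 genes of the list were called, and the share of all genes under that filter was not counted.

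Higd1b was also the gene whose pattern over the 7 arrays lay nearest to that of Kcnj8 among all 12393 genes. With each gene centred on its wild type mean, the root mean square difference from Kcnj8 was 0.056 log2 units for Higd1b, followed by 0.17 for both Isoc1 and Pon3. The nearest to Abcc9 were Gfm2 (0.032), Aox1 (0.034) and Slc25a42 (0.039), none of which is in the lists of mural genes. The measure is a description over 7 arrays and says nothing of shared control.

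Of 14 other contractile genes of smooth muscle that were measured, 4 fell, 1 rose and 9 did not pass, with a median of -0.18. The 35.7% called lay near the 31.8% of all genes, of which 15.5% were lower. By sign, 11 of the 14 were negative, against 5885 of all 12393 genes. Among those that did not pass, Casq2, Tpm2 and Synpo2 were bright (wild type means 12.06, 14.62 and 11.69). Itga8, Actg2 and Cnn1 were dim (4.51, 5.29 and 5.78). These genes were chosen after their values were seen, and the share of signal from muscle fibres was not tested. Myl9, the regulatory light chain of smooth muscle myosin, fell by 1.16 (SE 0.12, adjusted p = 0.000308) and its kinase gene Mylk by 0.87 (SE 0.09). Ppp1r14a, an inhibitor of the phosphatase that reverses this step, fell by 0.67 (SE 0.13). The 3 Mylk probe sets ran from -1.01 to -0.17. Vcl, vinculin, a linker of actin to adhesion sites in many cells, rose by 0.37 (SE 0.05), and a second Vcl probe set gave -0.09; their average did not pass (0.14, adjusted p = 0.147). With the probe sets of a gene averaged, 8 of the 14 passed, and the share of all genes under that rule was not counted. The list of the SRF and myocardin family, whose members include drivers of contractile genes, had 0 of 6 genes past the limma test. The nearest were Mrtfa at -0.22 (SE 0.08, adjusted p = 0.0803) and Elk4 at 0.17 (SE 0.08, adjusted p = 0.133). The 3 Elk4 probe sets ran from -0.16 to 0.17, and their average was 0.03. The unadjusted limma p of Mrtfa was 0.0269. Mrtfa passed without wild type array 1 (adjusted p = 0.0436).

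Among 6 other KATP and vascular potassium channel genes, 1 fell and 1 rose (33.3% called, near the 31.8% of all genes), with a median of 0.00. Kcna5, a voltage-gated channel of vascular smooth muscle, changed by -0.92 (SE 0.19, adjusted p = 0.00666) and Abcc8, of the receptor SUR1, by 0.67 (SE 0.12, adjusted p = 0.00412), both from dim probe sets. Kcnj11, the pore of the fibre KATP channel, measured 7.61 to 7.75 in wild type and 7.43 to 7.56 in knockout, a change of -0.14 (SE 0.06, adjusted p = 0.141). It was chosen after its value was seen.

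Genes of the signals that recruit and maintain mural cells went both ways. Of 5 other PDGF ligands and receptors, Pdgfa rose by 0.49 (SE 0.08), Pdgfc by 0.68 (SE 0.10) and the fibroblast receptor Pdgfra by 0.53 (SE 0.14), Pdgfd fell by 0.38 (SE 0.11), and the median was 0.49. Of the 5, 80% were called, against 31.8% of all genes. Pdgfra and Pdgfd lost their calls without wild type array 1 or 2 or knockout array 2 or 4, which left 2 genes called. With probe sets averaged, Pdgfc measured 0.39 and Pdgfra 0.35, and the second Pdgfc set gave 0.10. Pdgfb, chosen after its value was seen, is the ligand of PDGFRB and measured 8.10, 8.59 and 8.45 in wild type and 8.52, 8.89, 9.07 and 8.48 in knockout (0.37, SE 0.17, adjusted p = 0.144).

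Of 13 other Notch genes, 5 fell and 3 rose (61.5% called, against 31.8% of all genes), with a median of -0.06. Notch4, the endothelial receptor, changed by -0.83 (SE 0.08, adjusted p = 0.000245), Notch1 by -0.27 (SE 0.07) and the coactivator Maml1 by -0.25 (SE 0.07). Notch2 rose by 0.56 (SE 0.09), the DNA-binding partner Rbpj by 0.44 (SE 0.07) and the target Hey2 by 0.24 (SE 0.06), the last from a dim set. The second probe sets gave -0.08 for Notch4, 0.07 for Notch2 and -0.08 for Rbpj, and the averages of both sets were -0.46, 0.32 and 0.18. The number called was 5 without wild type array 1 or 2 and 4 without wild type array 3. Hey2 lost its call without wild type array 1 or 2, Maml1 without wild type array 1 or 3 or knockout array 2, and Notch1 without wild type array 3. In the RGS family beside Rgs5, 2 of 8 genes fell and 2 rose, with a median of 0.08: Rgs4, itself a mural cell gene, fell by 1.18 (SE 0.09, adjusted p = 7.98e-05) and Rgs2 by 0.91 (SE 0.13), while Rgs10 rose by 0.79 (SE 0.09) and Rgs3 by 0.59 (SE 0.14; -0.56 to 0.78 over its 4 probe sets). Of the 8 RGS genes 50% were called, against 31.8% of all genes. Dropping wild type array 2 took the call from Rgs3 (adjusted p = 0.0567), and so did averaging its probe sets (0.19, adjusted p = 0.148).

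**Figure D4:**
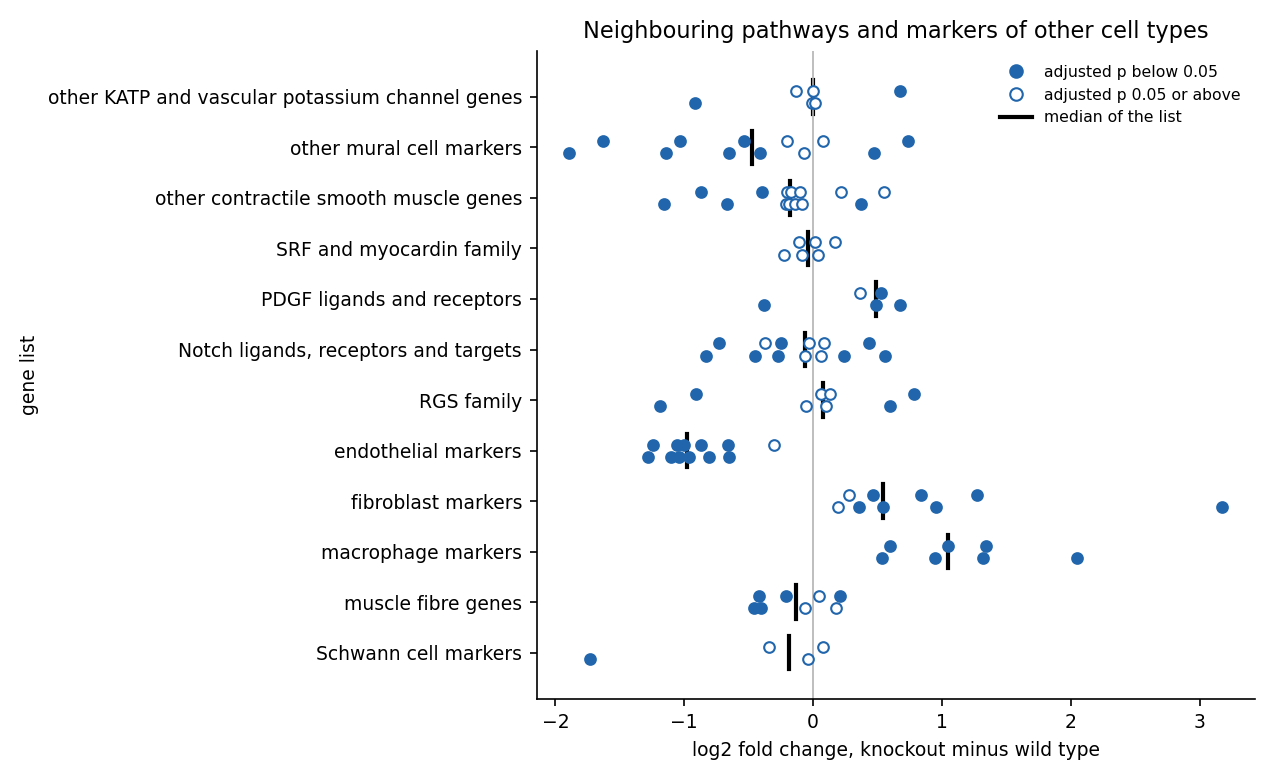
Log2 fold change of knockout against wild type (x axis) for the measured genes of 12 lists (rows), with points filled where the gene passed the test and a bar at the list's median. Endothelial markers lie between -1.28 and -0.30, macrophage markers between 0.54 and 2.05, and other mural cell markers spread from -1.89 to 0.73.

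Markers of other cell types changed on the same arrays. The test called 91.7% of the endothelial, 77.8% of the fibroblast and 100% of the macrophage markers, against 31.8% of all genes. Of 12 endothelial markers 11 fell and 1, Vwf, named after its value was seen, measured -0.30 (adjusted p = 0.0712), with a median of -0.98; the cadherin Cdh5 fell by 1.04 (-0.62 with its 2 probe sets averaged), the angiopoietin receptor homologue Tie1 by 0.96 and Robo4, a guidance receptor of vessels, by 1.05 (SE 0.08, 0.07 and 0.08). The summed endothelial level was 6257 to 6682 intensity units on the wild type arrays and 3269 to 3568 on the knockout arrays. Of 9 fibroblast markers 7 rose and none fell (median 0.54), led by the matrix genes Postn (3.18, SE 0.26), Col1a1 (0.96, SE 0.16) and Col3a1 (1.27, SE 0.23), and their sum was 20086 to 23434 units in wild type and 26828 to 41181 in knockout. The fibroblast count was 4 without wild type array 1 or 2. All 7 macrophage markers rose (median 1.05), with the lysosomal protein gene Cd68 at 2.05 (SE 0.13), the mannose receptor Mrc1 at 1.32 (SE 0.14) and Lyz2, lysozyme, at 1.34 (SE 0.18), and their sum was 2962 to 3520 units in wild type and 6273 to 10210 in knockout. Their part in the changes of the 10 genes was not tested.

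Of 8 muscle fibre genes 4 fell and 1 rose (median -0.14), with Mb, myoglobin, at -0.41 (SE 0.06; -0.25 with its probe sets averaged), the fast myosin Myh2 at -0.46 (SE 0.11), Ckm, creatine kinase, at -0.21 (SE 0.05) and the slow troponin Tnnt1 at 0.21 (SE 0.06), and the number called was 3 without wild type array 2 or 3. The fibre genes were near the top of the scale, Mb at 15.54 to 15.56 in wild type with a maximum of 15.63 over all arrays, so the defining fibre transcripts of the labelled tissue were present. Tnnt1 lost its call without wild type array 2 or 3 or knockout array 1 or 2. The test called 62.5% of the fibre genes and 25% of the Schwann cell markers below, against 31.8% of all genes. The summed level of the fibre genes was 317517 to 323019 units in wild type and 284556 to 307887 in knockout. Of 4 Schwann cell markers, Mbp, of the myelin sheath, fell by 1.73 (SE 0.31; -1.73 to -0.23 over its 8 probe sets, -0.91 on average) and 3 did not pass (median -0.19; 2 genes passed without wild type array 2), and the sum was 1955 to 2462 units in wild type and 1508 to 1849 in knockout.

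Read against the mean log2 level of the 12 endothelial markers of the same array, which changed by -0.91, the 10 genes kept different positions. Kcnj8 lay 0.72 lower in knockout than that mean did (SE 0.05), between -0.83 and -0.60 on the 4 knockout arrays. Rgs5 by its brightest set (0.00, SE 0.10) and Myh11 (-0.03, SE 0.12) moved by nearly the endothelial amount. The other Rgs5 sets fell by more than the endothelial mean (-1.29, -1.81 and -1.75). Tagln (0.20, SE 0.06) and Abcc9 (0.26, SE 0.07) were slightly above the endothelial amount. Notch3 (0.55, SE 0.08), Pdgfrb (0.83, SE 0.16), Acta2 (0.91, SE 0.03), Des (1.45, SE 0.04) and Cspg4 (1.65, SE 0.08) lay further above. These values were chosen after the results were seen and carry no test.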

How the data were processed

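The authors deposited 1 intensity per probe set and array on a linear scale, and RMA, which corrects background, normalizes between arrays and summarises a set's probes, is named per the submitters' processing notes. No source used here gives its software or the scan batches. Of 22690 probe sets, 64 controls were left out, and log2(value + 1) of the others was compared between knockout and wild type in two-sided tests with limma 3.58.1 under R 4.3.3 (lmFit, then eBayes). P-values were adjusted by Benjamini-Hochberg over 22626 probe sets and called below 0.05. No filter on dim sets was used. Fold changes are knockout minus wild type on that log2 scale. Symbols came from the platform annotation, for 20380 sets with 1 symbol (691 had several and 1555 none), updated through Entrez identifiers for 20351 of them. A gene was read from its brightest probe set by the 7-array mean, which gave 12393 genes. Arrays hold no sequencing depth, and their number limits the precision. At most 1819 probe sets had identical values in any pair of arrays.

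The 10 genes and the context lists were chosen with earlier results of these data known. The named genes are the 10 members, Yy1, up to 3 genes per list and direction with the smallest p among those called (otherwise the 2 smallest), and the 3 nearest patterns to Kcnj8 and Abcc9; any other is marked as picked with its value in view. Alternatives covered the pseudocount, a filter, scaling, the probe set rule, the variance prior and each array left out. A last one took the replicate number as a block, without knockout array 4. On simulated data over 22626 probe sets for knockout against wild type, limma recovered 92.8% of log2 changes of 1 and 60.8% of 0.5. Of the calls, 4.95% were false. Each of 10 draws changed 200 probe sets under independent normal noise, far fewer than the 6477 called here, so recovery in these data may differ.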

Additional observations from a re-analysis of the deposited data

Results flagged for a closer look

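In the dimmer Notch3 probe set (1421964_at), knockout array 3 stood apart from the other 3 knockout arrays, at 5.89 against 6.17 to 6.18 log2 units: the gap was 0.973 of the group's whole range, above Dixon's critical value for 4 samples at the 95% level. Of 27 groups of 4 values examined, 1 was past that limit, and chance alone passes about 1 in 20. In the brighter Notch3 set the same array, at 8.06, lay within the other knockout arrays (7.95 to 8.20).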

How the results depend on the processing

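The count of 8 member genes past the threshold was the same under all 16 alternatives, and 12 or 13 member probe sets passed in the 14 that kept probe sets apart. Kcnj8 stayed between -1.69 and -1.58 and Abcc9 between -0.69 and -0.63. The sign of the Acta2 change, never past the threshold, turned with arrays centred on their median (0.00099) or quantile-normalized (0.030), and without single arrays it ranged from -0.031 to 0.011. Pdgfrb, also never past it, ranged from -0.205 to 0.018 without single arrays. With probe sets averaged, Kcnj8 against Myh11 passed at -1.05, Abcc9 against Myh11 turned to -0.067, and 8 other contractile genes were called. The share of all genes called under that rule was not counted. Abcc9 against Tagln ranged from -0.020 to 0.132 without single arrays. With 1 array left out the permutation test of a pair cannot go below 0.0667 or 0.1, so those pair values carry no test.

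Wild type and knockout arrays 1 to 3 share replicate numbers in the labels, but deviations of same-numbered arrays correlated by only 0.0479, -0.0976 and 0.0111. Of 3 wild type arrays 0, and of 3 knockout arrays 1, correlated best with their own number. The check showed no sign of pairing by number, but over 3 pairs it cannot exclude one. The replicate block was fitted on arrays 1 to 3 of each genotype, without knockout array 4. In that fit 8 member genes and 12 member probe sets passed, and Kcnj8 changed by -1.58. The count of Notch genes called fell to 5 and of muscle fibre genes to 3 in that fit. Ckm, Hey2, Maml1, Notch1, Pdgfd, Rgs3 and Tnnt1 were not called in it (limma adjusted p = 0.064 to 0.0986). Pdgfd also lost its call without knockout array 4 alone (limma adjusted p = 0.058). The block and the missing array were not separated. Over probe sets above the median, 0 other potassium channel genes and 2 PDGF genes were called.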
